A study of Mus musculus with 12 samples.

Results

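The genes described here encode 7 prohormone processing enzymes, Furin, Pcsk1, Pcsk2, Cpe, Cpd, Pam and Qpct, which were taken by name. All 7 were found by symbol, among 31055 genes of the single-cell matrices and among 45808 genes of the bulk table. Their transcripts were followed through 7 classes of islet cells, set by which hormone genes a cell expressed, and through sorted bulk populations of γ-cells and δ-cells.

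Mouse islet cells were measured by droplet single-cell RNA-seq in 4 libraries, a YFP+ and a YFP- sorted fraction in each of 2 experiments, and by bulk RNA-seq in 5 γ-cell and 3 δ-cell libraries of sorted YFP+ cells. The single-cell mice and the γ-cell bulk mice carried a Ppy-rtTA allele, in which rtTA stands in for the coding sequence of 1 copy of Ppy, together with an R26-YFP reporter. The genotype field of the γ-cell bulk samples also names TetO-Cre, through which doxycycline (DOX) switches the reporter on. DOX was given at 1 mg/ml in the drinking water, which the labels date to a month before sampling. The δ-cells came from Sst-Cre;R26-YFP mice, and their labels repeat the DOX text although their reporter does not need it. All mice were 2 months old and of mixed background. In the Ppy-rtTA line, YFP therefore marks cells in which Ppy was active while DOX acted, in mice with 1 intact Ppy copy. In the Sst-Cre line it marks cells in which Sst was active at some time. Cells of separate mice were not labelled as such, so the p-values below measure the spread between libraries, or between class sums of 2 experiments.

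Peptide hormones are made as longer precursors. In the secretory pathway, endoproteases of the furin and prohormone convertase family cut after pairs of basic residues, carboxypeptidases remove the basic residues left behind, and where a glycine is then exposed, Pam converts it into an amide. Qpct closes an amino-terminal glutamine into pyroglutamate. In islets, Pcsk1 and Pcsk2 are known for the maturation of insulin in β-cells, and Pcsk2 for releasing glucagon in α-cells.

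Pairs of basic residues in the precursors are candidate sites for these enzymes. Every such pair of the coding sequence was taken, whether or not it is cut. Among them are pairs that start at residue 5 of Npy and Pyy and at residue 179 of 180 of Gcg. In the reference gene models, 8 islet precursors held 20 pairs of basic residues by codon, and 5 of the 8, Ppy, Pyy, Npy, Gcg and Iapp, held a site with a glycine in front of the pair, the arrangement that Pam uses. The other 3, Ins1, Ins2 and Sst, held none. The sites that the hormone classes are named for are given with their coding strand, 5′ to 3′, from build GRCm38. Capitals mark the codons of the basic pair and, for amidated hormones, of the glycine before it.
Ppy, glycine, lysine and arginine at the end of pancreatic polypeptide, chr11:102100262-102100528, minus strand, across an intron: aggcctaggtatGGGAAGAGAgccgaggag
Gcg, lysine and arginine before glucagon, chr2:62478644-62478670, minus strand: atgaatgaagacAAACGCcactcacag
Gcg, glycine, arginine and arginine at the end of glucagon-like peptide 1, chr2:62475853-62476846, minus strand, across an intron: gtgaaaggccgaGGAAGGCGAgacttccca
Ins2, arginine and arginine between the B chain and the C-peptide, chr7:142679357-142679383, minus strand: acacccatgtccCGCCGTgaagtggag
Ins2, lysine and arginine between the C-peptide and the A chain, chr7:142678770-142678796, minus strand: gtggcccagcagAAGCGTggcattgta
Iapp, glycine, lysine and arginine at the end of amylin, chr6:142303433-142303462, plus strand: tcgaatacatatGGCAAGAGGaatgcggca
Sst, arginine and lysine before the short form of somatostatin, chr16:23889765-23889791, minus strand: gcaccccgggaaCGCAAAgctggctgc
Thus, of the precursors shown, Ppy, Gcg and Iapp carry amidation sites, and Ins2 and Sst carry basic pairs alone. The sites belong to genes and not to cell types, as δ-cells also held transcripts of Pyy and Iapp.

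The 4 single-cell libraries held 5982 cells, with a median of 4237 to 8338 unique molecular identifiers (UMIs, counted transcripts) per cell and 1 to 6 barcodes shared between any 2 libraries. After 128 putative doublets and 5 non-endocrine clusters were taken out, 4459 cells remained. Scrublet marked 8 cells (0.134%), which is too few for that caller to have worked, and nearly all doublets came from a nearest-neighbour caller, so doublets may remain among bihormonal cells. Monohormonal classes held 1455 Ppy+ cells (γ-cells), 586 Gcg+ (α), 524 Ins2+ (β) and 238 Sst+ (δ). Bihormonal cells of any cluster were kept, whereas the study left out those in monohormonal clusters. They numbered 758 with Ppy and Gcg (Ppy+Gcg+), 120 with Ppy and Ins2 (Ppy+Ins2+) and 396 with Ppy and Sst (Ppy+Sst+). Of the Ppy+ cells, 1 and 7 in the 2 experiments came from YFP- libraries, whereas Gcg+ and Sst+ cells and all but 1 of the Ins2+ cells did, so class and sorted fraction went together between Ppy+ and the other monohormonal classes. Bihormonal cells were found in both fractions. Immune transcripts moved with the fraction. Summed over 12 marker genes, all of them detected there, they stood at 58.9 and 58.9 counts per 1000000 (CPM) in Ppy+ cells, and at 384 to 913 CPM in the other monohormonal classes. The 8 ductal markers went the other way, with 213 and 256 CPM in Ppy+ cells, where 1 of the 8 was undetected, and 66.9 to 179 CPM in the other monohormonal classes. The part of either in the results was not tested.

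UMIs were summed for each class in each experiment and are given as CPM, scaled by the trimmed mean of M-values (TMM). The scaling factor was 0.505 and 0.639 in the Ins2+ sums, where insulin transcripts fill much of the total, so the other genes of these sums are raised relative to a plain CPM. It was 0.839 and 0.858 in the Ppy+ sums, which raises them too. In the Sst+ sums it was 1.44 and 1.62, which lowers them. The orders of classes given below depend on this scaling. Values are listed with experiment 1 first. A gene was called when edgeR's quasi-likelihood test gave a Benjamini-Hochberg adjusted p of at most 0.05 over 10447 genes with a log2 fold change beyond 0.72 in size (0.5 on the natural-log scale). Bulk reads per library numbered 14633838 to 31784878 for γ-cells and 7641916 to 11773598 for δ-cells.

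**Figure D1:**
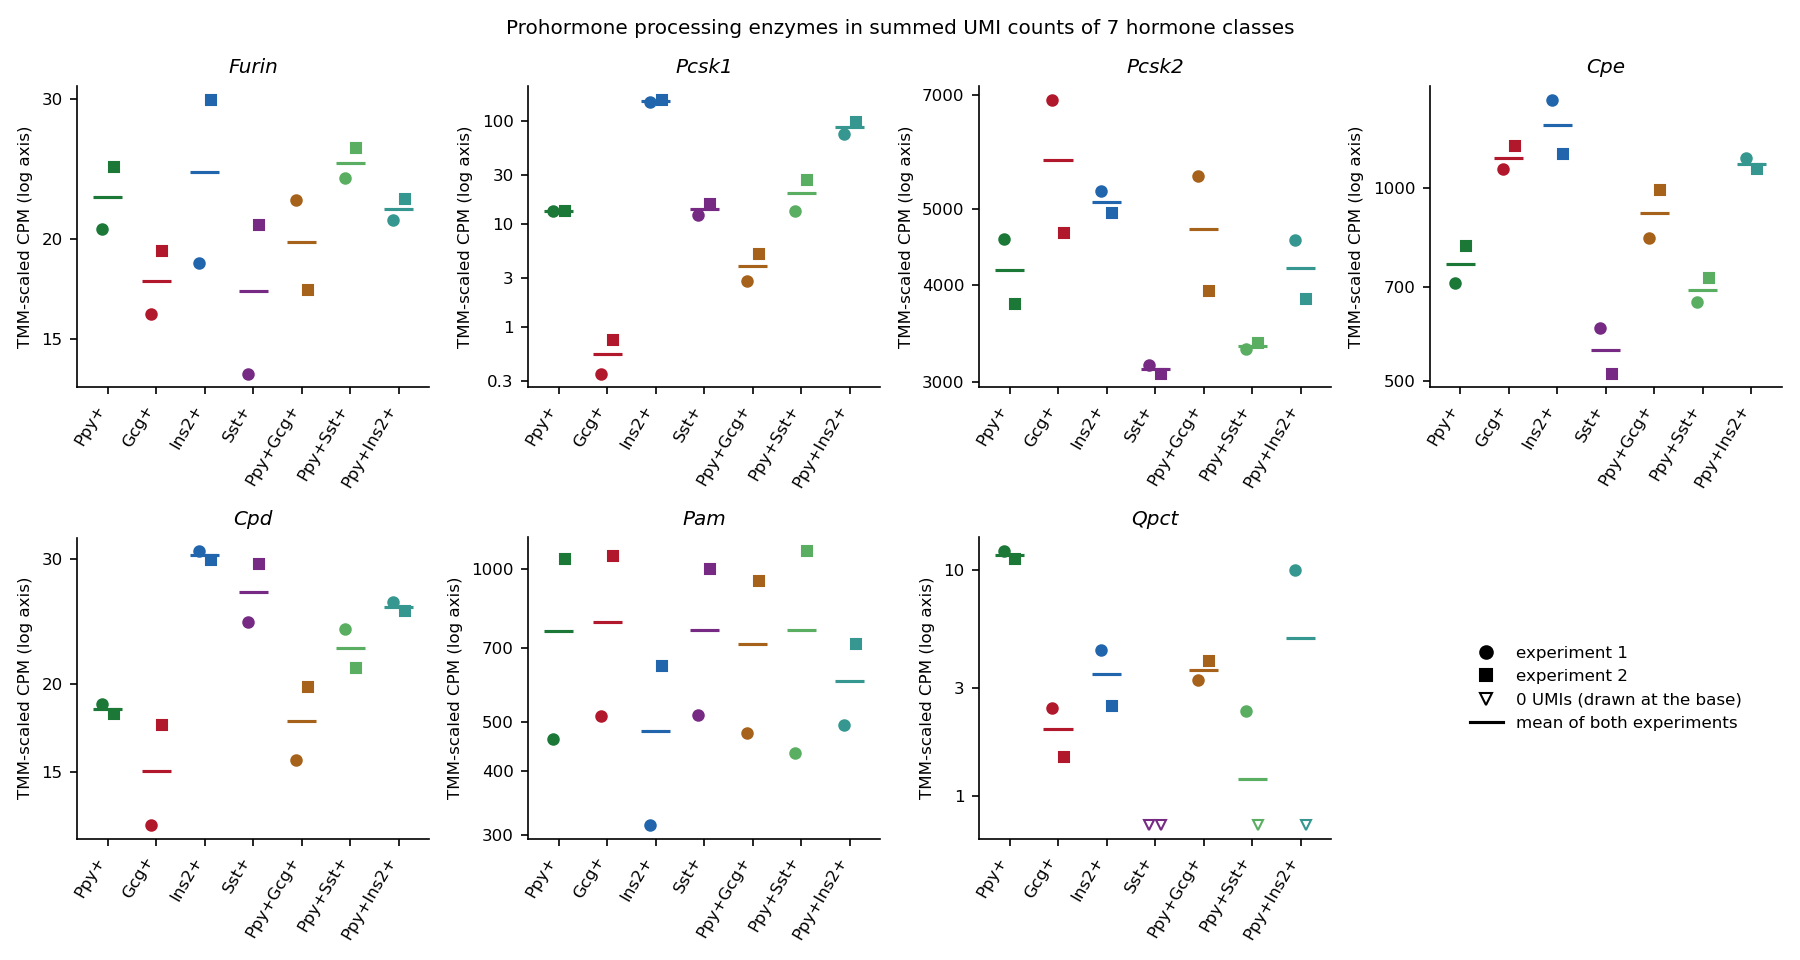
TMM-scaled CPM on log axes for each enzyme in summed UMI counts of the 7 hormone classes, with circles for experiment 1, squares for experiment 2, lines for their mean and open triangles for sums with 0 UMIs. Pcsk1 ranged from 0.350 CPM in Gcg+ to 162 CPM in Ins2+ cells, Qpct was highest in Ppy+ cells, and for Pam experiment 2 lay above experiment 1 in every class.

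Furin, the convertase of the constitutive secretory pathway, was low in all classes. It measured 20.6 and 24.7 CPM in Ppy+ cells, 16.1 and 19.4 CPM in Gcg+ cells, 18.7 and 30.0 CPM in Ins2+ cells and 13.6 and 20.8 CPM in Sst+ cells. Bihormonal classes lay between 17.3 and 26.0 CPM. Each class overlapped its neighbours in the order of levels. Furin was called in 0 of 12 single-cell comparisons by edgeR, had an unadjusted p under 0.05 in 0 of them, and was called in 0 by DESeq2.

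Pcsk1, which encodes prohormone convertase 1/3, separated the classes most widely among the 7 enzymes. It reached 154 and 162 CPM in Ins2+ cells (799 and 130 UMIs) and 0.350 and 0.745 CPM in Gcg+ cells (1 and 2 UMIs). Ppy+ cells held 13.5 and 13.3 CPM (65 and 61 UMIs), and Sst+ cells 12.2 and 15.6 CPM (9 and 9 UMIs). Ppy+ and Sst+ cells thus overlapped, far below β-cells and above α-cells, which overlapped with neither. The log2 difference of Ppy+ against Gcg+ cells was 4.51 (SE 0.48, edgeR adjusted p = 1.44e-09). As the Gcg+ sums rest on 3 UMIs, the ratio of pooled counts is also given, at 24.8 with a counting interval of 8.29 to 122. With each library summed on its own and blocked on, a fit that rests on the bihormonal cells both fractions hold, this difference was still called. Against Ins2+ cells, Ppy+ cells were lower, with a log2 difference of -3.58 (SE 0.16, edgeR adjusted p = 3.27e-21). Against Sst+ cells the log2 difference was -0.04 (SE 0.37, edgeR adjusted p = 0.967), and the pooled ratio of 0.979 had a counting interval of 0.595 to 1.71. Such intervals cover counting error only.

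Between the other monohormonal classes, Pcsk1 was higher in Ins2+ than in Gcg+ cells by a pooled ratio of 286 (counting interval 97.6 to 1390). It was higher in Ins2+ than in Sst+ cells by 3.54 on the log2 scale (SE 0.26, edgeR adjusted p = 6.21e-14), and lower in Gcg+ than in Sst+ cells, with a log2 difference of -4.55 (SE 0.68, edgeR adjusted p = 2.60e-06). Droplets can also take up free RNA, so Pcsk1 is given beside Ins2. Ins2+ cells held 0.157 and 0.233 Pcsk1 UMIs per 1000 Ins2 UMIs. Gcg+ cells held 0.0448 and 0.252, with counting intervals of 0.00113 to 0.25 and 0.0305 to 0.910 that include the ratio of Ins2+ cells in the same experiment. Ppy+ cells held 8.51 and 16.1 Pcsk1 UMIs per 1000 Ins2 UMIs, and Sst+ cells 1.62 and 5.82. As the classes were set by Ins2 among other hormones, these ratios depend on that threshold too, and the part of free RNA in the Pcsk1 values was not tested.

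Pcsk2, which encodes prohormone convertase 2, was abundant in every endocrine class. It measured 4580 and 3776 CPM in Ppy+ cells, 6905 and 4665 CPM in Gcg+ cells, 5276 and 4936 CPM in Ins2+ cells, and 3156 and 3075 CPM in Sst+ cells. After TMM scaling, Gcg+ and Ins2+ cells overlapped, Ppy+ cells lay just below both, and Sst+ cells were the lowest class in both experiments. Pcsk2 was higher in Gcg+ than in Sst+ cells by 0.87 on the log2 scale (SE 0.14, edgeR adjusted p = 5.46e-06), its only call among the 12 comparisons. Ins2+ and Sst+ cells differed by 0.71 (SE 0.14, edgeR adjusted p = 0.000134), just inside the fold threshold. In Ppy+ cells Pcsk2 had log2 differences of 0.41 against Sst+ cells (edgeR adjusted p = 0.0346) and of -0.46 against Gcg+ cells (edgeR adjusted p = 0.0117), both inside the fold threshold. Of its exonic bases, 4.54% overlap the antisense genes Pcsk2os1 and Pcsk2os2, whose reads may be counted with it if strand was not used.

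Cpe, the carboxypeptidase of regulated secretory granules, followed a similar order. It measured 709.6 and 810.1 CPM in Ppy+ cells, 1069 and 1162 CPM in Gcg+ cells, 1373 and 1130 CPM in Ins2+ cells and 604 and 513 CPM in Sst+ cells. After TMM scaling, Gcg+ and Ins2+ cells overlapped at the top, Ppy+ cells lay below both, and Sst+ cells were lowest without overlap. Cpe was lower in Ppy+ than in Ins2+ cells, with a log2 difference of -0.73 (SE 0.13, edgeR adjusted p = 1.16e-05) that lies at the fold threshold and was not called in 5 of 13 alternatives. Against Gcg+ cells the difference of -0.55 (SE 0.12, edgeR adjusted p = 0.000921) and against Sst+ cells that of 0.44 (SE 0.13, edgeR adjusted p = 0.0216) did not reach the fold threshold. Cpe was higher in Gcg+ than in Sst+ cells by 0.99 (SE 0.13, edgeR adjusted p = 3.32e-07) and higher in Ins2+ than in Sst+ cells by 1.17 (SE 0.13, edgeR adjusted p = 1.07e-08).

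Cpd, a carboxypeptidase of the trans-Golgi network that acts after furin, had another order. It measured 30.8 and 30.0 CPM in Ins2+ cells, 24.4 and 29.5 CPM in Sst+ cells, 18.7 and 18.1 CPM in Ppy+ cells and 12.6 and 17.5 CPM in Gcg+ cells. None of these 4 ranges overlapped. Cpd was lower in Ppy+ than in Ins2+ cells, with a log2 difference of -0.77 (SE 0.18, edgeR adjusted p = 0.000766, not called in 5 of 13 alternatives), and lower in Gcg+ than in Ins2+ cells, with -1.07 (SE 0.21, edgeR adjusted p = 7.37e-05, not called in 1 of 14). The difference of -0.54 between Ppy+ and Sst+ cells had an edgeR adjusted p of 0.231. Gcg+ and Sst+ cells differed by -0.84 (SE 0.30, edgeR adjusted p = 0.059), and by -0.86 (edgeR adjusted p = 0.0478) in the YFP- libraries alone.

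Pam, the amidating enzyme, differed more between the experiments than between the classes. In Ppy+ cells it measured 464 and 1047 CPM, in Gcg+ cells 513 and 1060 CPM, in Ins2+ cells 313 and 646 CPM and in Sst+ cells 517 and 999 CPM. The second experiment was above the first in all 7 classes, by 1.44 to 2.50 times (median 2.06), whereas the median of this ratio was 0.765 to 1.30 for the other 6 enzymes. All classes therefore overlapped in Pam unless sums of the same experiment were compared, as the fit with an experiment block does. There, Pam was 0.64 higher on the log2 scale in Ppy+ than in Ins2+ cells (SE 0.13, edgeR adjusted p = 0.000147), 0.71 higher in Gcg+ than in Ins2+ cells (SE 0.13, edgeR adjusted p = 3.25e-05), and differed by -0.67 in Ins2+ from Sst+ cells (SE 0.14, edgeR adjusted p = 0.000284). All 3 differences were inside the fold threshold, so that edgeR called Pam in 0 of 12 comparisons, with an unadjusted p under 0.05 in 4. DESeq2 called it in 2, Gcg+ against Ins2+ and Ins2+ against Sst+ cells, where its estimates lay just past the threshold (0.723 and -0.722). Ins2+ cells had the lowest Pam of the 4 monohormonal classes in both experiments. Pam in Ppy+ cells differed by -0.08 from Gcg+ and by -0.04 from Sst+ cells, with edgeR adjusted p-values of 0.727 and 0.901.

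Qpct, which forms pyroglutamate, was the enzyme with its highest level in γ-cells. Ppy+ cells held 12.1 and 11.1 CPM (58 and 51 UMIs), Gcg+ cells 2.45 and 1.49 CPM (7 and 4 UMIs), and Ins2+ cells 4.43 and 2.50 CPM (23 and 2 UMIs). No Qpct UMI was found in either Sst+ sum. Both Ppy+ sums lay above all sums of other classes. Qpct was higher in Ppy+ than in Gcg+ cells by 2.52 on the log2 scale (SE 0.44, edgeR adjusted p = 3.22e-05) and than in Ins2+ cells by 1.59 (SE 0.38, edgeR adjusted p = 0.00113). The call against Ins2+ cells was not made without the experiment block (edgeR adjusted p = 0.0501). Against Sst+ cells Qpct was at least 5.08-fold higher at a floor of 3 counts over both Sst+ sums (edgeR adjusted p = 0.000766), and the exact counting interval of the pooled ratio began at 4.06. Qpct held 0 to 23 UMIs in every sum outside Ppy+ cells, and so passed the filter on low counts mainly through the class in which it was high. It failed that filter in the YFP- libraries alone. Its calls therefore add nothing to the description of its levels.

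Qpct was more abundant in cells that had been taken out. A cluster of 236 cells led by Dcn and Col3a1 held 158 CPM on average and one of 165 cells led by Ctrb1 and Try5 held 69.1 CPM (both without TMM scaling). Qpct is therefore given beside the markers of these clusters. Ppy+ cells held 951 and 630 Qpct UMIs per 1000 UMIs of the 8 stromal markers, against 8.78 and 6.74 in the Dcn and Col3a1 cluster. The other monohormonal classes held 130 and 38.1 (Gcg+), 590 and 26.0 (Ins2+) and 0 and 0 (Sst+), on 2 to 105 stromal UMIs per sum. Per 1000 UMIs of the 8 acinar markers Ppy+ cells held 155 and 214, against 0.662 and 3.57 in the Ctrb1 and Try5 cluster. Gcg+ cells held 13.3 and 16.1 by this measure, Ins2+ cells 21.2 and 45.5, and Sst+ cells 0 and 0. The stromal markers summed to 12.7 and 17.7 CPM in Ppy+ cells, with 1 of the 8 undetected, and to 18.9 and 39.1 CPM in Gcg+ cells. Their sums were 7.51 and 96.2 CPM in Ins2+ cells and 2.71 and 19.1 CPM in Sst+ cells. Nearly all Ppy+ cells came from YFP+ libraries, and neither the part of the fraction nor that of free RNA in the Qpct values of the monohormonal classes was tested.

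**Figure D2:**
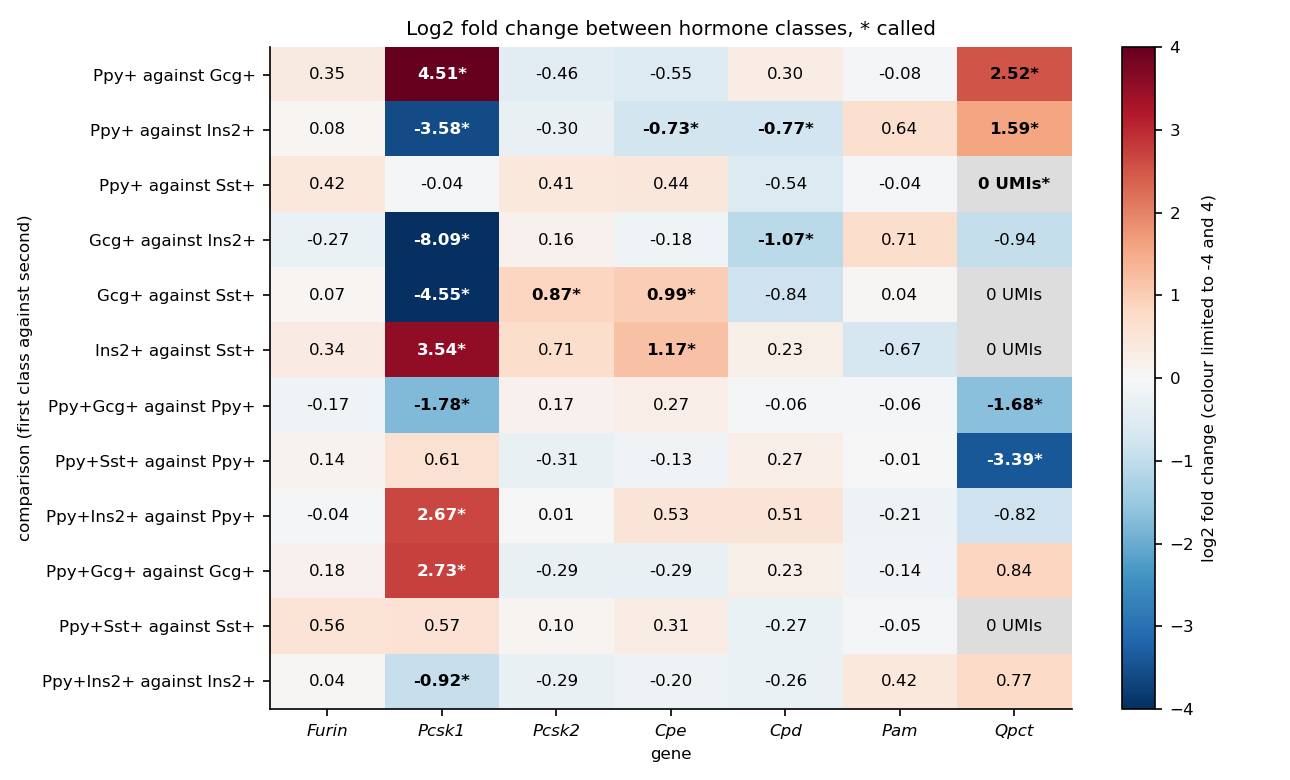
Log2 fold changes of the 7 enzymes (columns) in 12 comparisons of hormone classes (lines of the grid), first class against second, with an asterisk on called differences and grey where 1 class held 0 UMIs. The calls lie mainly under Pcsk1 and Qpct, with 4.51 for Pcsk1 in Ppy+ against Gcg+ cells and -8.09 in Gcg+ against Ins2+ cells, and none lie under Furin or Pam. Calls under Qpct describe levels only, as it passed the filter on low counts mainly through Ppy+ cells.

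Counted by comparison, 2 of 7 enzymes were called in Ppy+ against Gcg+ cells, Pcsk1 and Qpct, both higher in γ-cells, where 12.5% of all tested genes were called. The median log2 difference of the 7 was 0.30, beside -0.01 over all genes. Against Ins2+ cells 4 of 7 were called, Qpct higher and Pcsk1, Cpe and Cpd lower, at 26.4% of all genes, with a median of -0.30 beside 0.00 over all genes. Against Sst+ cells 1 of 7 was called, Qpct, at 11.7% of all genes, with a median of 0.41 beside 0.03. After TMM scaling, Pcsk1 in γ-cells was thus level with δ-cells, Pcsk2 and Cpe ranked between δ-cells and β-cells, and Qpct was highest. The Qpct calls counted here describe levels only, since this gene passed the filter on low counts mainly through Ppy+ cells.

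Between the other monohormonal classes, 2 of 7 were called in Gcg+ against Ins2+ cells (22.3% of all genes), Pcsk1 and Cpd, both lower in Gcg+ cells. In Gcg+ against Sst+ cells 3 of 7 were called (11.7% of all genes), Pcsk2 and Cpe higher and Pcsk1 lower. In Ins2+ against Sst+ cells 2 of 7 were called (15.4% of all genes), Pcsk1 and Cpe, both higher in Ins2+ cells. These 3 comparisons rest on cells of YFP- libraries but for 1 cell. With the YFP- libraries used alone, where Qpct failed the filter on low counts, 2, 4 and 2 enzymes were called, the added one being Cpd.

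Bihormonal cells express Ppy together with a second hormone, and were compared with γ-cells and with cells of that second hormone. In Ppy+Gcg+ cells Pcsk1 measured 2.77 and 5.10 CPM (11 and 18 UMIs) and Qpct 3.27 and 3.96 CPM (13 and 14 UMIs). The sums of both enzymes lay between those of Ppy+ and Gcg+ cells without overlap with either. For Qpct against Gcg+ cells this rests on 27 UMIs against 11. The pooled ratio of 1.81 had a counting interval of 0.870 to 4.05, which includes an equal level. Within the YFP- libraries Qpct overlapped, at 0 and 2.47 CPM in Ppy+Gcg+ cells and 2.58 and 1.56 CPM in Gcg+ cells. Pcsk1 overlapped there too, at 0 and 7.42 CPM (0 and 3 UMIs) in Ppy+Gcg+ cells and 0.368 and 0.781 CPM in Gcg+ cells. Against Ppy+ cells 2 of 7 enzymes were called (2.84% of all genes), Pcsk1 with a log2 difference of -1.78 (SE 0.28, edgeR adjusted p = 2.38e-05) and Qpct with -1.68 (SE 0.35, edgeR adjusted p = 0.00186). Qpct was not called without the experiment block or with DESeq2. It passed the filter on low counts mainly through Ppy+ cells, so its calls describe levels only. Within the YFP+ libraries alone, where both classes were sorted alike, the differences were -1.75 for Pcsk1 (edgeR adjusted p = 2.78e-05) and -1.54 for Qpct (edgeR adjusted p = 0.00107).

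Against Gcg+ cells 1 of 7 was called (3.32% of all genes), Pcsk1, higher in Ppy+Gcg+ cells by 2.73 on the log2 scale (SE 0.65, edgeR adjusted p = 0.00765). This call rests on 29 UMIs against 3 (pooled ratio 7.14, counting interval 2.21 to 36.6), and it was not made in 8 of 14 alternatives, among them the fit without the block, DESeq2 and the YFP- libraries alone. The median UMIs per cell of Ppy+Gcg+ cells, 7616 and 6537, were close to those of Ppy+ cells (7616.5 and 5888) and of Gcg+ cells (7853 and 6613). The part of cell doublets in these intermediate values was not tested.

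In Ppy+Sst+ cells Pcsk1 measured 13.5 and 26.7 CPM (17 and 43 UMIs), level with Ppy+ and Sst+ cells in experiment 1 and above both in experiment 2. Qpct gave 2.39 CPM (3 UMIs) in experiment 1 and none in experiment 2, well under Ppy+ cells. Against Ppy+ cells 1 of 7 was called (7.84% of all genes), Qpct (edgeR adjusted p = 0.000246), with a pooled ratio of 0.0901 and a counting interval of 0.0183 to 0.270. The call was also made within the YFP+ libraries alone (edgeR adjusted p = 0.000673). As Qpct passed the filter on low counts mainly through Ppy+ cells, these calls describe levels only. Against Sst+ cells edgeR called 0 of 7 (0.488% of all genes) and DESeq2 0, and 1 enzyme had an unadjusted p under 0.05, Cpe, with a log2 difference of 0.31 (SE 0.14, edgeR adjusted p = 0.494). The shares of all genes called here depend on keeping Ppy+Sst+ cells of any cluster. With those in Sst clusters left out, 231 genes were called against Sst+ cells (51 with them). Against Ppy+ cells 201 genes were called (819 with them).

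In Ppy+Ins2+ cells Pcsk1 measured 75.9 and 98.4 CPM (61 and 35 UMIs), between Ppy+ and Ins2+ cells without overlap with either. Against Ppy+ cells 1 of 7 was called (7.12% of all genes), Pcsk1, higher by 2.67 on the log2 scale (SE 0.23, edgeR adjusted p = 1.61e-11), and within the YFP+ libraries by 2.68 (edgeR adjusted p = 1.48e-11). Against Ins2+ cells 1 of 7 was called (3.24% of all genes), Pcsk1, with -0.92 (SE 0.18, edgeR adjusted p = 0.000749), a call not made in 5 of 12 alternatives including the fit without the block and DESeq2. Ppy+Ins2+ cells held 0.153 and 0.293 Pcsk1 UMIs per 1000 Ins2 UMIs, with counting intervals that include the ratio of Ins2+ cells in the same experiment. Their median UMIs per cell, 11131 and 7705, lay between those of Ppy+ cells and of Ins2+ cells (23931 and 12435). Qpct had 8 UMIs in experiment 1 and none in experiment 2. With the cells in Ins2 clusters left out, Ppy+Ins2+ cells were too few to compare.

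**Figure D3:**
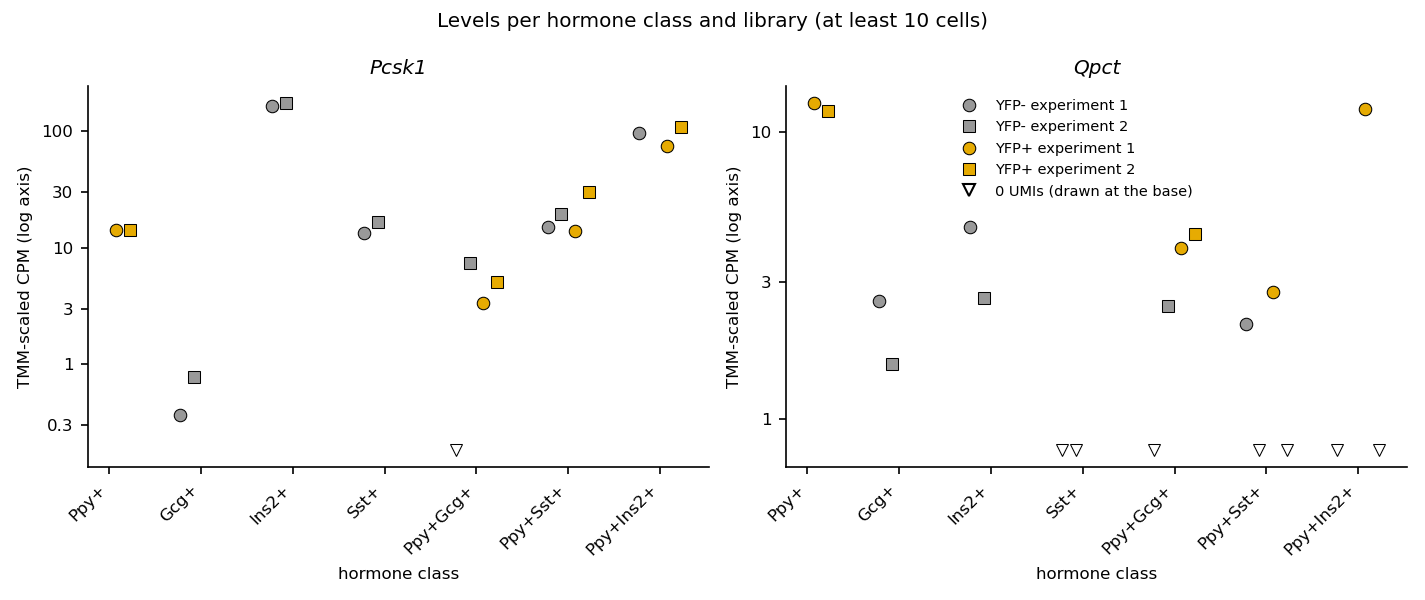
Pcsk1 and Qpct in TMM-scaled CPM on log axes for each hormone class and library with at least 10 cells, grey for YFP- and yellow for YFP+, circles and squares for experiments 1 and 2, and open triangles for 0 UMIs. Ppy+ cells appear only in YFP+ and the other monohormonal classes only in YFP- libraries, and bihormonal cells of the YFP+ libraries differ from Ppy+ cells of the same libraries in Pcsk1 (Ppy+Gcg+ lower, Ppy+Ins2+ higher).

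The share of cells with at least 1 UMI depends on depth, which was 23931 and 12435 UMIs per cell at the median in Ins2+ cells and 7616.5 and 5888 in Ppy+ cells. With all UMIs, Pcsk1 was found in 76.0 and 72.5% of Ins2+ cells, 7.84 and 7.06% of Ppy+ cells, 7.56 and 7.56% of Sst+ cells and 0.331 and 0.704% of Gcg+ cells. With each cell thinned to 1000 UMIs, these became 6.00 and 8.79% of Ins2+ cells, 1.63 and 1.67% of Ppy+ cells, and 0 of 302 and 0 of 284 Gcg+ cells, where a floor of 3 cells allows a share of cells with a UMI of up to 0.993 and 1.06%. The removed non-endocrine clusters, which should lack Pcsk1, held 0 to 2.41%, under the floor of 3.61% in a group of 83 cells. These shares are too coarse to set a background, and at this depth Ppy+ cells are not separated from it. With all UMIs Pcsk1 averaged 0.561 to 5.48 CPM in these clusters, without TMM scaling. Beside that stood 13.4 CPM in Ppy+ cells and 2.77 and 5.10 CPM in Ppy+Gcg+ cells. Pcsk2 was found in 92.3 to 100% of thinned endocrine cells and in 4.48 to 23.2% of thinned cells of removed clusters. Cpe was found in 46.2 to 71.8% and in 1.49 to 17.1%. By class, these shares, which use no TMM scaling, were 55.5 and 52.1% in Sst+ cells and 46.2 and 49.3% in Ppy+ cells. They were 47.8 and 56.0% in Ins2+ cells and 68.9 and 68.0% in Gcg+ cells. Sst+ cells were thus not the lowest class for Cpe by this measure. Qpct was found in 0.592 and 0.899% of thinned Ppy+ cells, and in 20% and 13.5% of thinned cells of the Dcn and Col3a1 cluster.

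Across the 14 class sums, with the mean of each experiment taken out, the genes whose log2 CPM ran closest to each enzyme were sought among 1325 genes with at least 50 CPM on average. For Pcsk1 they were Spock2 (Pearson's r 0.978), Cd164 (0.95) and Zdhhc2 (0.946), and for Cpd they were Camk2n1 (0.932), Ece1 (0.928) and Insm1 (0.918). Pcsk2 ran closest to Hagh (0.919) and Cpe to Il6ra (0.945), whereas the closest to Furin was Birc6 at 0.780. Qpct ran closest to Dstn (0.882) and Pam to Mkln1 (0.899). Among the enzymes themselves the highest value was 0.850 between Pcsk1 and Cpd, followed by 0.759 between Pcsk2 and Cpe, and the lowest was -0.716 between Pcsk1 and Pam. These are descriptions over sums that share their libraries and depth.

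A list of 26 other genes of the pathway held further convertases, their inhibitor and chaperone, further carboxypeptidases, Qpctl, electron and copper supply for Pam, and peptidases. Of these, 20 passed the filter in single cells. In Ppy+ against Gcg+ cells 0 of 20 rose and 2 fell, where 12.5% of all genes were called. These were Pcsk1n, which encodes the convertase inhibitor proSAAS (log2 difference -1.09, edgeR adjusted p = 1.44e-08), and Dpp4, a peptidase that trims incretins, with -0.94. Against Ins2+ cells (26.4% of all genes) 3 rose, among them Scg5, which encodes the Pcsk2 chaperone 7B2 (0.84), and 6 fell, among them the convertase Pcsk6 (-1.77) and the copper transporter gene Atp7a (-1.28). Against Sst+ cells (11.7% of all genes) 4 rose and 4 fell. Scg5 was higher in γ-cells by 1.31 (edgeR adjusted p = 1.04e-07) and Cyb561, which supplies electrons to Pam, by 1.18 (edgeR adjusted p = 0.0481). Pcsk6 and Dpp4 were lower, with -1.91 and -1.30. Both rest on few UMIs, with 7 and 11 for Pcsk6 and 9 and 11 for Dpp4 in the Sst+ sums. DESeq2 did not call Cyb561 here (adjusted p = 0.167) or Dpp4 against Gcg+ cells (adjusted p = 0.103).

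In the bihormonal comparisons with Ppy+ cells, 1 of 20 rose in Ppy+Gcg+ cells (2.84% of all genes), Dpp4 by 1.14, which DESeq2 did not call (adjusted p = 0.0707). In Ppy+Sst+ cells 1 rose and 3 fell (7.84% of all genes), and in Ppy+Ins2+ cells 2 rose and 3 fell (7.12% of all genes). In Ppy+Sst+ cells the fallen genes were Scg5 (-0.97), Cpn1, another carboxypeptidase (-1.19), and the lysosomal protease gene Ctsl (-0.94), and Ece1, a peptidase that processes endothelin, rose by 0.79. In Ppy+Ins2+ cells Cpm, a membrane carboxypeptidase, rose by 2.16 (14 and 3 UMIs in these sums), while Cpn1 (-1.48), Ctsl (-0.76) and Ctsb (-0.83) fell. Against Gcg+, Sst+ and Ins2+ cells, edgeR called 0 of 20 in the matching bihormonal class (3.32, 0.488 and 3.24% of all genes), where 1, 1 and 3 had an unadjusted p under 0.05, and DESeq2 called 0.

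In bulk RNA-seq, sorted γ-cells were compared with sorted δ-cells. A gene was called at an edgeR adjusted p of at most 0.05 over 17926 genes with a log2 fold change of at least 1 in size. The γ-cell libraries were sequenced as paired-end reads on a HiSeq4000 and the δ-cell libraries as single-end reads on a HiSeq2500, both at 100 bases, so cell type, mouse line and sequencing run cannot be told apart. In a bulk population, fewer cells of a type and less RNA per cell cannot be told apart either. The labels were checked against the hormones: Ppy stood at 108279 CPM in γ-cells and 11813 CPM in δ-cells on average, Sst at 9650 and 76595 CPM, and Gcg at 69979 and 3055 CPM. The γ-cell libraries thus also held α-cell transcripts and the δ-cell libraries held Ppy. The 8 acinar markers summed to 1733 to 10572 CPM in γ-cell libraries and to 16507 to 65861 CPM in δ-cell libraries. The 8 stromal markers summed to 578 to 3442 CPM in γ-cell libraries (median 1043) and to 8.96 to 774 CPM in δ-cell libraries (median 294), and 5 β-cell markers to 6241 to 20284 CPM and 941 to 2437 CPM. The part of these cells in the bulk results was not tested.

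**Figure D4:**
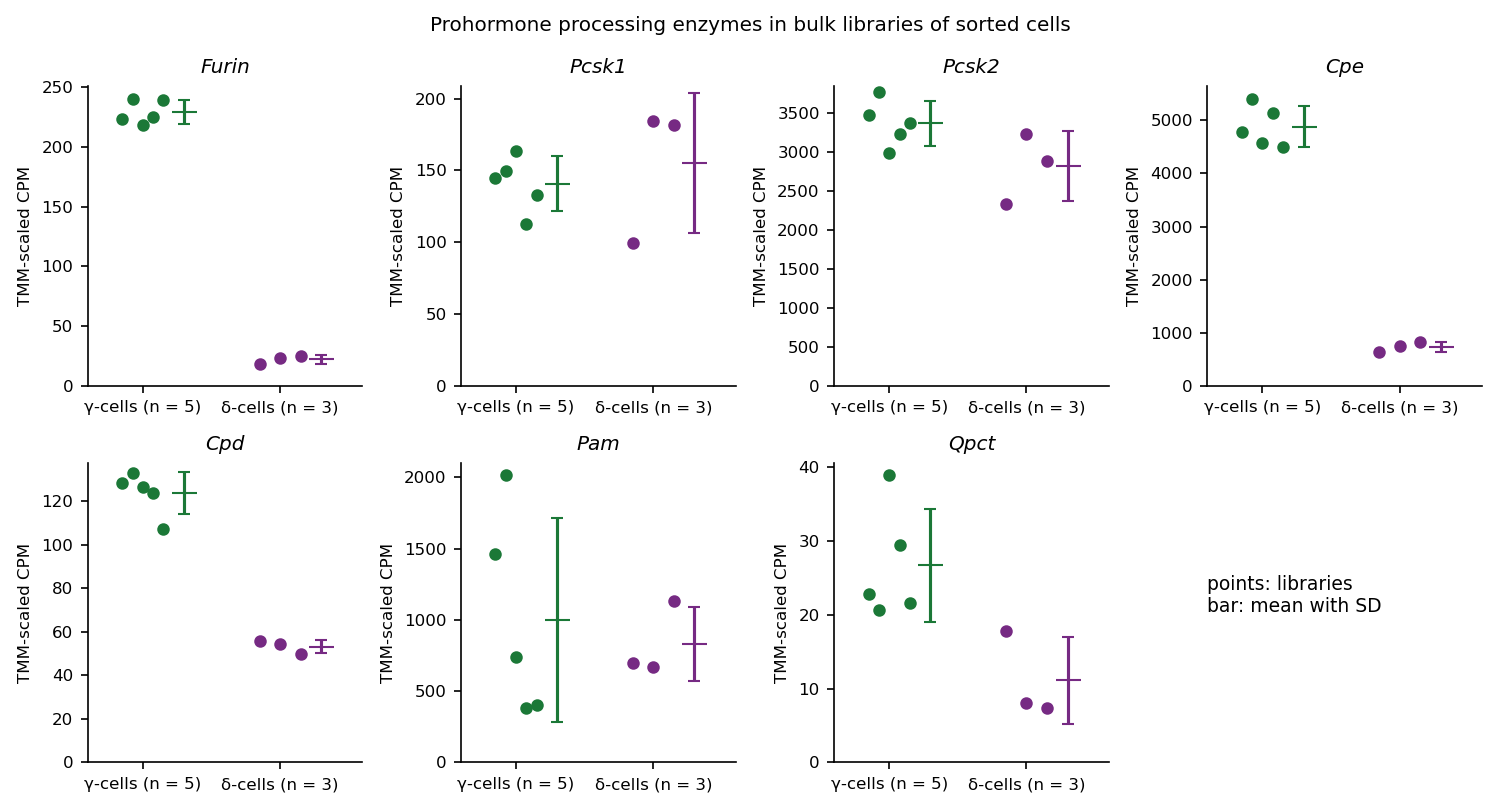
TMM-scaled CPM of the 7 enzymes in 5 γ-cell and 3 δ-cell bulk libraries, with points for libraries and a bar for the mean with SD, on axes that start at 0. Furin, Cpe, Cpd and Qpct show no overlap between the groups, with Furin between 219 and 240 CPM in γ-cells and between 18.2 and 25.0 CPM in δ-cells, and Pam is spread widely among the γ-cell libraries. The share of all genes without overlap was not counted, and 35% of all tested genes were called between these groups.

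Furin differed most among the enzymes. The 5 γ-cell libraries held 223, 240, 219, 225 and 240 CPM and the 3 δ-cell libraries 18.2, 23.6 and 25.0 CPM. The groups were far apart, with little spread within each, and the log2 difference was 3.36 (SE 0.13, edgeR adjusted p = 2.94e-08). Pcsk1 held 145, 149, 163, 112 and 133 CPM in γ-cells and 99.2, 184 and 182 CPM in δ-cells. Here the δ-cell libraries spanned the γ-cell range, and the log2 difference was -0.14 (SE 0.20, edgeR adjusted p = 0.574). Pcsk2 held 3469, 3772, 2982, 3229 and 3376 CPM in γ-cells and 2336, 3233 and 2880 CPM in δ-cells, which overlapped (log2 difference 0.26, edgeR adjusted p = 0.20).

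Cpe held 4773, 5408, 4570, 5133 and 4502 CPM in γ-cells and 631, 759 and 819 CPM in δ-cells. Every γ-cell library was above every δ-cell library, and the log2 difference was 2.73 (SE 0.17, edgeR adjusted p = 4.50e-07). Cpd held 128, 133, 127, 124 and 107 CPM in γ-cells and 55.5, 54.3 and 49.6 CPM in δ-cells, again without overlap (log2 difference 1.22, SE 0.10, edgeR adjusted p = 4.18e-06). Both carboxypeptidases were therefore higher in the γ-cell libraries.

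Pam held 1462, 2018, 742, 385 and 401 CPM in γ-cells and 695, 673 and 1133 CPM in δ-cells. The γ-cell libraries differed among themselves by 5.24 times, the widest spread of the 7 enzymes, and enclosed the δ-cell libraries (log2 difference 0.26, edgeR adjusted p = 0.696). Qpct held 22.8, 20.7, 38.9, 29.4 and 21.6 CPM in γ-cells and 17.9, 8.07 and 7.41 CPM in δ-cells. The groups did not overlap, with the first δ-cell library close to the lowest γ-cell library, and the log2 difference was 1.28 (SE 0.33, edgeR adjusted p = 0.00833). In all, 4 of 7 enzymes were called, all higher in γ-cells, where 35% of all tested genes were called (3715 higher and 2553 lower). The median log2 difference was 1.22 for the 7 enzymes and -0.06 for all genes. Upper-quartile scaling, which moved the median of all genes to -0.35 and the calls to 3055 higher and 3746 lower, brought Qpct to 0.96 and Cpd to 0.92, under the fold threshold.

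Bulk values per kilobase (RPKM, from the CPM and the joint length of all annotated exons) were used to rank the enzymes within a population. This length can exceed that of the longest transcript, as for Pam (11892 and 4102 bases), so the ranks depend on it. In γ-cells Cpe was first with 1869 RPKM, followed by Pcsk2 (425 RPKM), Pam (84.2 RPKM), Pcsk1 (25.1 RPKM), Furin (25.0 RPKM), Cpd (14.8 RPKM) and Qpct (10.5 RPKM). With SDs of 3.42 and 1.07 RPKM, Pcsk1 and Furin could not be ordered there. In δ-cells Pcsk2 was first with 356 RPKM, followed by Cpe (282 RPKM), Pam (70.1 RPKM), Pcsk1 (27.7 RPKM), Cpd (6.38 RPKM), Qpct (4.38 RPKM) and Furin (2.43 RPKM). Pcsk2 exceeded Pcsk1 in both populations, and the change in Cpe and Furin altered the order between them.

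GC content moved with the bulk comparison. The median log2 difference rose from -0.37 in the fifth of genes with the lowest transcript GC to 0.70 in that with the highest. Furin transcripts had 55.9% GC, Cpe 49.7%, Cpd 45.7% and Qpct 43.4%. With offsets for GC bins in each library, the differences were 3.12 for Furin, 2.72 for Cpe, 1.34 for Cpd and 1.48 for Qpct, and all 4 were called.

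Of the 26 pathway genes, 25 were tested in bulk, of which 7 rose in γ-cells and 1 fell, beside 35% of all tested genes called. Pcsk1n had a log2 difference of 6.02 (edgeR adjusted p = 6.09e-08), with 1894 CPM in γ-cells and 29.1 CPM in δ-cells on average. Scg5 was higher by 2.10 and Cpn1 by 1.43. Pcsk4, Pcsk6 and Aebp1 were among the others that rose, and the one that fell was the aminopeptidase gene Ctsh, with -2.63. Pcsk4 and Aebp1 were not called with the GC offsets. Among the precursors that these enzymes act on, Chga, which encodes chromogranin A, was higher in γ-cells by 2.77, Vgf by 5.06 (3.32 with the GC offsets), and Chgb lower, with -1.94. Vgf held 1.59 to 8.26 CPM in γ-cell libraries and 0.339, 0 and 0.163 CPM in δ-cell libraries. Its difference thus rests on values near 0 and describes levels only. It failed the filter in single cells, with 3 and 0 UMIs in the Ppy+ sums and 0 and 0 in the Sst+ sums. In single cells, Ppy+ differed from Sst+ cells in the same direction in Chga (1.09, edgeR adjusted p = 5.58e-06) and Chgb (-0.73, edgeR adjusted p = 0.000215). The insulin precursors went opposite ways, with 3.64 in bulk and -2.45 in single cells for Ins1 and 3.13 and -2.00 for Ins2, and Gcg had 4.52 in bulk and -0.24 in single cells, where thresholds on Ins2 and Gcg set the classes. Iapp had 0.60 in bulk and -3.80 in single cells.

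The contrast of γ- and δ-cells can be read in both assays, side by side. Cpe differed by 2.73 on the log2 scale in bulk and by 0.44 in single cells, and Furin by 3.36 and 0.42. Cpd differed by 1.22 in bulk and by -0.54 in single cells, where its difference was not called. Pcsk1 (-0.14 and -0.04), Pcsk2 (0.26 and 0.41) and Pam (0.26 and -0.04) were not called in either, and Qpct was higher in γ-cells in both. For Qpct the single-cell call describes levels only, and the bulk call was not made with upper-quartile scaling. Outside the 7 enzymes, Pcsk1n had 6.02 in bulk and 0.10 in single cells, and Pcsk6 rose in bulk (1.31) and fell in single cells (-1.91). The single-cell value of Pcsk6 rests on 9 and 26 UMIs in the Ppy+ sums and 7 and 11 in the Sst+ sums. The difference between the assays was not tested. Single-cell class means in TMM-scaled CPM are given beside the bulk differences in Cpe and Furin. The highest monohormonal class was 2.24 times the lowest for Cpe (Ins2+ and Sst+) and 1.41 times for Furin (Ins2+ and Sst+).

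**Figure D5:**
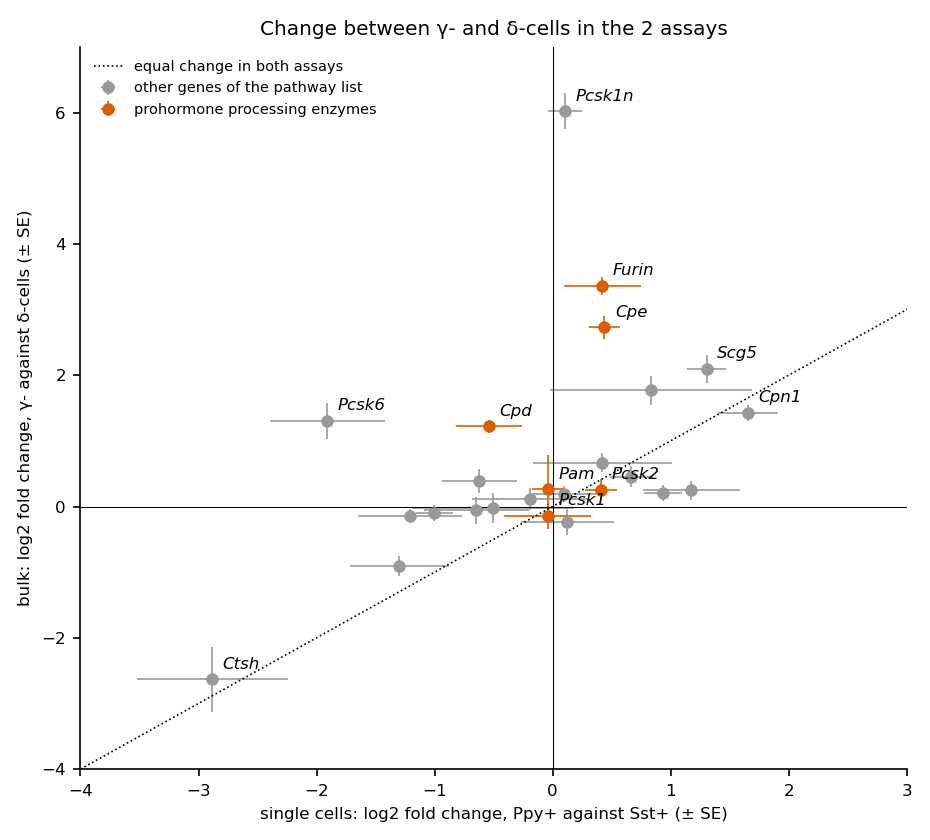
Log2 fold change (± SE) of γ-cells against δ-cells in bulk libraries (vertical axis) and of Ppy+ against Sst+ cells in single-cell sums (horizontal axis) for the enzymes (orange) and other pathway genes (grey) tested in both and with UMIs in both classes, with a dotted line for equal change. Furin, Cpe and Pcsk1n lie far above the line (Pcsk1n at 6.02 in bulk and 0.10 in single cells), and Pcsk1, Pcsk2 and Pam lie near the origin. Bulk γ-cells were all sorted YFP+ cells, whereas the single-cell classes were monohormonal.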

How the data were processed

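Per the labels and the study's methods, the authors counted UMIs with Cell Ranger on mm10 with YFP and rtTA added, and the deposited matrices hold these raw counts after the authors' cell filters. Bulk reads were aligned with STAR 2.7.2b to GRCm38.p6 (Ensembl release 100) and counted per gene with HTSeq 0.9.1. Of the bulk columns, 6 were not used here. Strand use in counting is not given in the sources used here.

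Cells were clustered with Seurat 5.3.0 and classed by hormone thresholds after the study's methods, with none of the 7 enzymes among the variable genes. Unlike in the study, which kept only the bihormonal cells of its bihormonal cluster, those of any cluster were kept. Doublets were marked with Scrublet (scanpy 1.11.5) and a nearest-neighbour caller. UMIs were summed per class and experiment and fitted with edgeR 4.0.16 (TMM, filterByExpr, experiment as a block). All 14 sums shared 1 estimate of the spread. A class needed at least 10 cells per sum. Bulk counts were fitted likewise without a block, for genes with at least 5 counts on average. DESeq2 1.42.0 was an alternative. Counting intervals are exact at 95%. In simulated data for Ppy+ against Gcg+ cells (9525 genes), 92% of 2-fold changes were recovered. In bulk (17926 genes) 41% of 2-fold and 89% of 4-fold changes were recovered. The fold threshold in bulk is itself a 2-fold change, so the 41% depends on that cut and cannot be compared with the 92%.

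The genes named are the 7 enzymes, the pathway and precursor lists, and the 3 genes most correlated with each enzyme. The enzymes and lists were chosen with earlier results of these data known. Values of 1 pathway gene are not reported here.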

Additional observations from a re-analysis of the deposited data

Results flagged for a closer look

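In cells outside the comparisons, 3 enzymes were higher than in any hormone class. In the 236 cells of the cluster led by Dcn and Col3a1, Qpct stood at 158 CPM on average over the 2 experiments, beside 11.6 CPM in its highest endocrine class. In the 251 cells of the cluster led by Fabp4 and Rbp7, Cpd stood at 188 CPM beside 30.4 CPM, and Furin at 46.1 CPM (23 UMIs) beside 25.0 CPM. Other removed clusters also exceeded the hormone classes. The Ctrb1 and Try5 cluster held 69.1 CPM of Qpct, 38.5 CPM of Cpd and 32.5 CPM of Furin. The Dcn and Col3a1 cluster held 65.3 CPM of Cpd. The cluster led by Lyz2 and Tff3 held 34.6 CPM of Furin and 15.4 CPM of Qpct. Values of the removed clusters are without TMM scaling. No γ-cell library stood apart from its group in any of 24 outlier tests of the bulk values, of which chance alone flags about 1 in 20. The δ-cell libraries were not tested for outliers.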

How the results depend on the processing

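No called difference changed its sign under any alternative. Of 1090 single-cell fold changes under alternatives with a test, 1041 stayed on their side of the threshold, 27 lost and 22 gained a call, and 39 changed sign. Of 126 in bulk, 124 stayed on their side and 6 changed sign. In bulk, the block of replicate numbers 1 to 3 left 4 enzymes called and 5383 genes, beside 5989 genes in the same 6 libraries without it, and the correlations of same-numbered libraries, -0.095, 0.068 and -0.274, did not show pairing. Upper-quartile normalization left 2 enzymes called. In single cells the number of enzymes called moved by over 1.5 times as follows. Without the replicate block it was 1 in Ppy+Gcg+ against Ppy+ cells and 0 in Ppy+Gcg+ against Gcg+ and Ppy+Ins2+ against Ins2+ cells, and DESeq2 gave the same 3 values. When each library was summed on its own and blocked on, it was 2 in Ppy+ against Ins2+, 1 in Ppy+ against Gcg+ and Ppy+Gcg+ against Ppy+ cells, and 0 in Ppy+ against Sst+, Ppy+Sst+ against Ppy+, Ppy+Gcg+ against Gcg+ and Ppy+Ins2+ against Ins2+ cells. With cells thinned to 1000 UMIs it was the same in these comparisons but 1 in Ppy+ against Ins2+ cells, and 1 in Gcg+ against Ins2+ cells. In both of these settings Qpct failed the filter on low counts. Ppy+Gcg+ against Gcg+ cells also gave 0 with thresholds raised by 0.5, no doublet removal, YFP- libraries alone, and without cells over the 95th percentile of UMIs, where Ppy+Ins2+ against Ins2+ cells gave 0 too. Hormone thresholds only gave 2 in Ppy+ against Ins2+ cells. In Ins2+ against Sst+ cells no low-count filter and a log2 threshold of 0.5 gave 4, and that threshold gave 2 in Ppy+Ins2+ against Ppy+ cells. Over all genes, the number called fell to between 0.233 and 0.625 times its value in 8 comparisons without the replicate block to between 0.343 and 0.626 times in 6 with DESeq2, to between 0.072 and 0.507 times in 6 with library sums and to between 0.071 and 0.365 times in 12 with thinned cells. In YFP- libraries alone it fell to between 0.00865 and 0.620 times in 3, and with bihormonal cells outside the other hormone's clusters it was between 0.245 and 4.53 times in 3. The ends of the latter range were both in Ppy+Sst+ cells, 0.245 against Ppy+ and 4.53 against Sst+ cells. One comparison each moved to 1.71 times with no low-count filter, 0.651 with no doublet removal, 0.608 without cells over the 95th percentile and 0.629 in YFP+ libraries alone. With 1 experiment alone, which allows no test, 133 of 171 fold changes moved by less than the spread between experiments. Other causes were not tested. With bihormonal cells kept outside the other hormone's clusters, a choice nearer to the study's, Ppy+Ins2+ cells were too few to compare. The second clustering moved with floating-point details of the linear algebra library, and hormone thresholds only is the setting that does not use it. Shares of cells moved with depth in 46 of 49 groups. The GC offsets, the 6 libraries without a block and the fits within YFP+ or YFP- libraries were chosen after seeing the data. Precision is limited by the 51 to 58 Qpct UMIs per Ppy+ sum and by 2 experiments.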
